A study of Drosophila melanogaster with 6 samples.

Results

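The enzymes described here carry out the mitochondrial oxidation of fatty acids, and 6 genes were chosen by their FlyBase symbols: *whd*, *Mcad*, *Mtpalpha*, *yip2*, *scu* and *Etf-QO*. Of these, 5 were matched by identifier to the 17492 genes of the count table. The identifier that the annotation gives to *Etf-QO*, the enzyme that passes electrons from fatty acid oxidation to ubiquinone, was not in the table, and this gene was not analysed here. RNA was measured in dissected head tissue of *Drosophila melanogaster* at 2 ages, 3d (young) and 30d (old), with 3 samples of each age. Both groups were of the wild-type line 5905 (w1118), with no other allele, transgene or drug named in the labels, so that age was the only labelled difference between them. The flies kept for aging in the study were adult males collected on the day of eclosion. The number of heads in each RNA sample is not given in the sources used here, nor whether the samples of one age came from separate cultures, so that the p-values measure the spread between these samples, which may be technical.

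Fatty acids are oxidized in the mitochondrial matrix in a repeating series of reactions known as the spiral. Acyl groups enter the mitochondrion as carnitine esters, and each turn of the spiral then dehydrogenates, hydrates, dehydrogenates again and cleaves the chain, which releases acetyl-CoA for the TCA cycle. Electrons from the first dehydrogenation pass through the electron transfer flavoprotein to the respiratory chain. In flies the fat body is a major store of the triglycerides that feed this pathway, and in the nervous system glia are known to carry out much of the fatty acid oxidation.

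Counts on genes numbered from 3176380 to 3741860 in a sample. Levels below are in CPM (counts scaled to library size, with TMM factors), fold changes are at 30d against 3d, and SE stands for their standard error on the log2 scale. The test was the quasi-likelihood test of edgeR, adjusted by Benjamini and Hochberg over the 8773 genes with enough counts. At an adjusted p under 0.05, 1259 genes (14.4%) were higher and 1410 genes (16.1%) were lower in the 30d heads. With scaling by library size alone these numbers were 1715 and 1053. Over all genes tested the log2 fold change had a median of 0.02. One 3d sample stood apart from the others of its age in muscle transcripts: 13 muscle markers summed to 6684 CPM in 3d replicate 1 and to 4457 and 4502 CPM in the other 3d samples, against 2874 to 3021 CPM at 30d.

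The transcripts of all 5 measured enzymes were more abundant in each 30d head sample than in any 3d head sample. Among all genes tested, 22.3% were separated in this way in this direction. For 4 of the 5 enzymes (*whd*, *Mcad*, *Mtpalpha* and *yip2*) the level rose at an adjusted p under 0.05 with edgeR, against 14.4% of all genes, and 0 of the 5 fell, against 16.1%. At an unadjusted p under 0.05, 5 were higher and 0 were lower. The share of all genes higher at that threshold is at least 14.4% and is not reported here, so this count has no background beside it. The log2 fold changes were modest and lay between 0.22 and 0.46, with a median of 0.38 beside 0.02 over all genes. Summed over the 5 genes, the levels were 740, 819 and 808 CPM in the 3d samples and 939, 1011 and 1084 CPM in the 30d samples. Since these are bulk tissue samples, a change in the number of cells of a type and a change in the RNA per cell cannot be told apart.

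**Figure D1:**
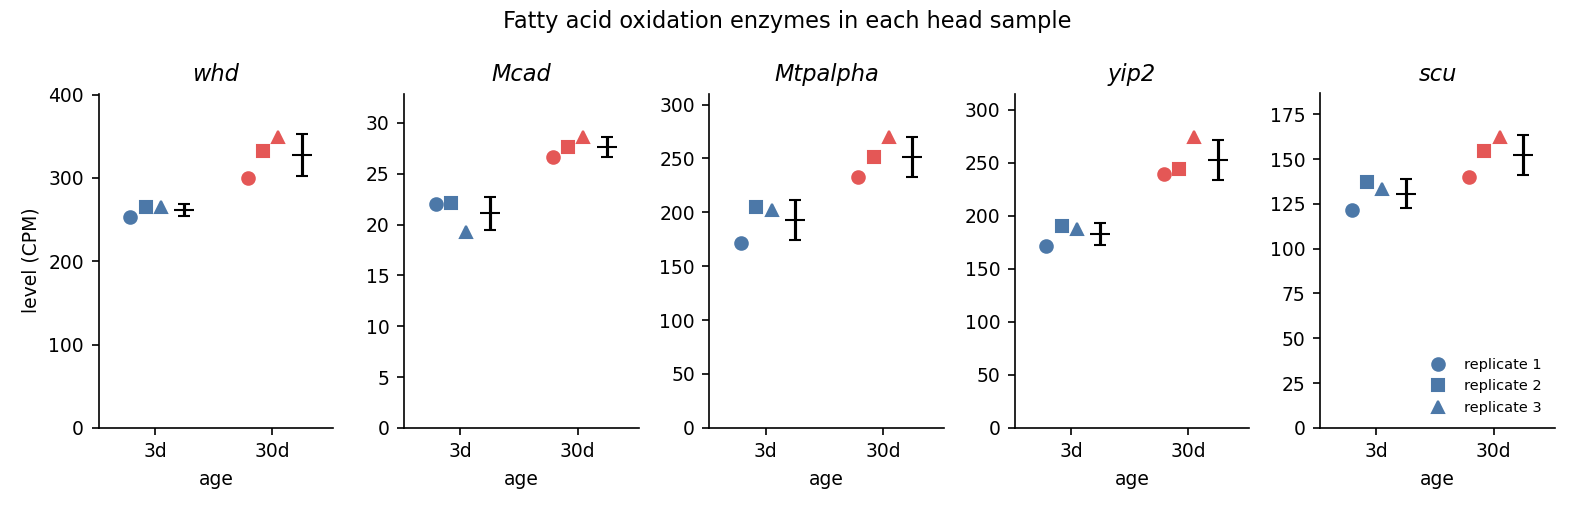
Level of *whd*, *Mcad*, *Mtpalpha*, *yip2* and *scu* in CPM (vertical axes, each from 0) in the 3 head samples at 3d and the 3 at 30d, with the mean and SD of each age beside the points and a symbol for each replicate number. Every 30d point lies above every 3d point in all 5 panels, and the gap is narrowest for *scu*, between 137 and 140 CPM.

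*whd* (withered, FBgn0261862) encodes carnitine palmitoyltransferase 1, the enzyme of the outer mitochondrial membrane that makes acyl-carnitines and controls the entry of long chains. It lies on 2R at 10469473 to 10478567 of dm6 (minus strand). Its level was 253, 265 and 266 CPM in the 3d samples and 300, 333 and 349 CPM in the 30d samples. The 3d samples were close together, and the 30d samples were more spread, with all of them above the 3d samples. *whd* thereby rose 1.25-fold, from 261 ± 6.92 to 327 ± 25.1 CPM (SD, n = 3; log2 fold change 0.32, SE 0.08, edgeR adjusted p = 0.00883).

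*Mcad* (FBgn0035811) encodes the medium-chain acyl-CoA dehydrogenase, which catalyses the first step of the spiral on chains of intermediate length. It lies on 3L at 7719350 to 7721472 of dm6 (plus strand). Its level was 22.0, 22.1 and 19.3 CPM at 3d and 26.7, 27.6 and 28.6 CPM at 30d. These levels rest on 65 to 81 counts in a 3d sample and on 98 to 101 counts in a 30d sample, and the ages did not overlap. *Mcad* rose 1.31-fold, from 21.1 ± 1.62 to 27.6 ± 0.957 CPM (log2 fold change 0.39, SE 0.12, edgeR adjusted p = 0.0289). The call was lost without 3d replicate 3 (edgeR adjusted p = 0.104), without 30d replicate 2 (0.0817) or 30d replicate 3 (0.0846), and with the Wald test of DESeq2 (0.250).

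The counting did not use strand, and 92.6% of the exon bases of *Mcad* overlap another gene, *CG7457*, in the annotation used here. A read wholly inside the shared bases fits both genes and is given to neither by the counting mode of the study. The annotation leaves 108 exon bases of *Mcad* outside this overlap, and with it only reads that reach those bases would be counted for *Mcad*. *CG7457* itself had 28, 42 and 34 counts at 3d and 47, 50 and 48 counts at 30d, and its log2 fold change was 0.38 (SE 0.17, edgeR adjusted p = 0.105). The values of *Mcad* are therefore uncertain, its level most of all. Among the other enzymes, 11.1% of the exon bases of *whd* and 0.347% of those of *Mtpalpha* overlap another gene, and none of those of *yip2* and *scu* do.

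*Mtpalpha* (FBgn0028479) encodes the alpha subunit of the mitochondrial trifunctional protein, which hydrates long-chain enoyl-CoA and then oxidizes the product. It lies on 2L at 9573563 to 9576769 of dm6 (minus strand). Its level was 172, 205 and 202 CPM at 3d and 233, 252 and 270 CPM at 30d. The first 3d sample lay well under the other 3d samples, and all 3d samples lay under the lowest 30d sample. *Mtpalpha* rose 1.30-fold, from 193 ± 18.4 to 251 ± 18.4 CPM (log2 fold change 0.38, SE 0.09, edgeR adjusted p = 0.00677). Without 3d replicate 1 the log2 fold change was 0.30 (edgeR adjusted p = 0.0197).

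The partner of *Mtpalpha* is *Mtpbeta*, which encodes the thiolase subunit of the same complex. *Mtpbeta* rose from 155 ± 21.5 to 191 ± 6.74 CPM (log2 fold change 0.30, SE 0.10, edgeR adjusted p = 0.0330). The balance between the subunit transcripts was compared as the log2 ratio of *Mtpalpha* to *Mtpbeta*, which was 0.21, 0.20 and 0.55 in the 3d samples and 0.35, 0.39 and 0.46 in the 30d samples. The ages overlapped in this ratio through 3d replicate 3 alone, which was the highest of the 6 samples. The other 3d samples lay below every 30d sample. The ratio differed by 0.08 between the ages, which was less than the spread between the 3d samples (exact two-sided permutation test, p = 0.6, where the smallest p that 3 against 3 samples allow is 0.1).

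*scu* (scully, FBgn0021765) encodes a mitochondrial 3-hydroxyacyl-CoA dehydrogenase of the type 2 family, which acts at the third step of the spiral and whose human counterpart is also a subunit of mitochondrial RNase P. It lies on X at 18091259 to 18092853 of dm6 (plus strand). Its level was 122, 137 and 133 CPM at 3d and 140, 155 and 162 CPM at 30d. The ages did not overlap, but the gap between the highest 3d sample and the lowest 30d sample was smaller than the spread within either age. *scu* had the smallest log2 fold change of the 5 genes, from 131 ± 8.08 to 152 ± 11.3 CPM, and did not pass the threshold (1.16-fold, log2 fold change 0.22, SE 0.08, edgeR adjusted p = 0.0641). It passed without 30d replicate 1 (log2 fold change 0.28, edgeR adjusted p = 0.0297), with scaling by library size alone (0.30, adjusted p = 0.0169) and with the replicate number as a block (0.22, adjusted p = 0.0437).

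*yip2* (FBgn0040064) encodes a thiolase, the enzyme that cleaves acetyl-CoA from the chain at the last step of the spiral. It lies on 2L at 9915253 to 9917220 of dm6 (plus strand). Its level was 171, 190 and 188 CPM at 3d and 240, 244 and 274 CPM at 30d. *yip2* had the widest separation of the 5 genes, with 30d replicate 3 above the other 30d samples. It rose 1.38-fold, from 183 ± 10.3 to 253 ± 18.7 CPM (log2 fold change 0.46, SE 0.08, edgeR adjusted p = 0.00118), and with any single sample left out its log2 fold change stayed between 0.40 and 0.50.

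The levels of the 5 genes can be set beside each other only after division by the length of their exons. Per kilobase of exon, *yip2* was the most abundant, with 132 CPM at 3d and 182 CPM at 30d, followed by *scu* with 115 and 134 CPM. *whd* had 82.3 and 103 CPM per kilobase, *Mtpalpha* 66.8 and 87.1. *Mcad* came last with 14.5 and 18.9, a value lowered to an unknown extent by the reads that overlap *CG7457* and are left out of the counts. This order was the same at both ages, and the ranges of neighbouring genes in it did not overlap at 3d or at 30d. The closest neighbours at 3d were *yip2*, at 123 to 136 CPM per kilobase, and *scu*, at 107 to 121. At 30d they were *whd*, at 94.4 to 109.9, and *Mtpalpha*, at 80.7 to 93.5.

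Within an age the genes shared much of their order across samples. Of the 30d samples, replicate 1 was the lowest and replicate 3 the highest for 5 of the 5 genes. Of the 3d samples, replicate 1 was the lowest for 4 of the 5 genes and replicate 2 the highest for 4. *Mcad* was lowest in 3d replicate 3, and *whd* was highest there. The sample with the lowest levels at 3d, replicate 1, was also the one with the highest sums of muscle, neuronal and glial markers. Without it, *whd*, *Mcad*, *Mtpalpha* and *yip2* still passed the threshold, with log2 fold changes of 0.30, 0.41, 0.30 and 0.42 (adjusted p = 0.0209, 0.0478, 0.0197 and 0.0035 with edgeR), and *scu* was at 0.17 (adjusted p = 0.176).

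**Figure D2:**
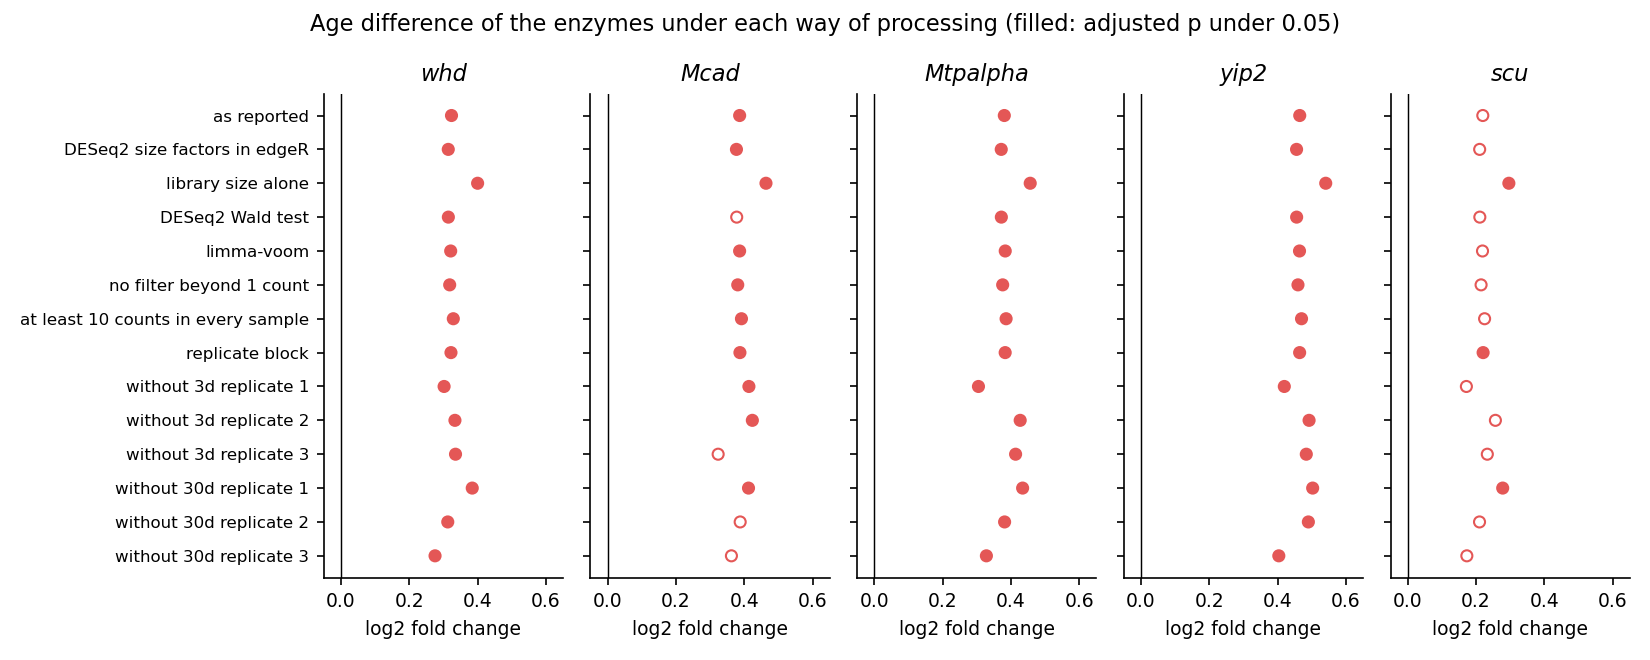
The log2 fold change at 30d against 3d (horizontal axes) of *whd*, *Mcad*, *Mtpalpha*, *yip2* and *scu* as reported and under 13 other ways of processing the counts (rows), with filled circles for an adjusted p under 0.05 and open circles otherwise. All points lie above 0, *whd*, *Mtpalpha* and *yip2* are filled throughout, *Mcad* is open in 4 rows and *scu* is filled in 3.

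The rest of the pathway was described from a list of 18 other mitochondrial enzymes and carriers, of which 17 were tested. Among them 8 rose, 1 fell and 8 did not pass the test, against 14.4% higher and 16.1% lower over all genes. Their median log2 fold change was 0.33, beside 0.02 over all genes, and 15 of the 17 log2 fold changes were above 0. With the Wald test of DESeq2, 3 of them rose (*CG3902*, *Echs1* and *wal*) and 1 fell. Over all genes that test called 741 higher and 1066 lower, of 10241 with an adjusted p.

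In the carnitine shuttle and the activation of fatty acids, 2 of 6 genes rose and 1 fell, with a median of 0.11. The median was 0.06 without 3d replicate 1 or 30d replicate 3, 0.16 without 30d replicate 1 and 0.19 with scaling by library size alone. *CPT2*, carnitine palmitoyltransferase 2 of the inner membrane, which acts after *whd*, had 33.2, 33.9 and 33.8 CPM at 3d and 46.3, 40.5 and 49.2 CPM at 30d (log2 fold change 0.43, SE 0.11, edgeR adjusted p = 0.00880). *CRAT*, the carnitine acetyltransferase, rose from 53.9 ± 4.11 to 70.03 ± 5.10 CPM (log2 fold change 0.37, SE 0.10, edgeR adjusted p = 0.0129), though not without 30d replicate 2 (edgeR adjusted p = 0.0643). Neither *CPT2* nor *CRAT* passed with the Wald test of DESeq2 (adjusted p = 0.0791 and 0.0667). The carnitine-acylcarnitine carrier, *colt*, was at 109 ± 5.89 and 117 ± 8.12 CPM and did not pass (log2 fold change 0.09, edgeR adjusted p = 0.440). Of the acyl-CoA synthetases, which activate fatty acids before their entry, *Acsl* and *bgm* did not pass, with log2 fold changes of 0.13 and -0.02. *CG3961*, annotated to the same family of synthetases, was the only gene of the 17 that fell, from 506 ± 19.5 to 412 ± 57.9 CPM (log2 fold change -0.29, SE 0.10, edgeR adjusted p = 0.0391). Its 30d samples were spread from 346 to 454 CPM, and the call was lost in 5 of the 6 fits that left out 1 sample and with scaling by library size alone (log2 fold change -0.22, edgeR adjusted p = 0.0970).

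Of 9 other enzymes of the spiral, 5 rose and 0 fell, with a median log2 fold change of 0.38, and with 1 sample left out 2 to 5 rose (2 without 30d replicate 3). The acyl-CoA dehydrogenases share the first step with *Mcad* and differ in the chains they prefer. *CG3902*, for short and branched chains, rose from 361 ± 29.5 to 493 ± 10.2 CPM (log2 fold change 0.45, SE 0.08, edgeR adjusted p = 0.00133), and *Arc42*, for short chains, rose from 41.8 ± 3.55 to 54.5 ± 4.31 CPM (log2 fold change 0.38, edgeR adjusted p = 0.0158). *Acadvl*, for very long chains, was at 152 ± 16.03 and 161 ± 7.88 CPM and did not pass (log2 fold change 0.08, edgeR adjusted p = 0.534), nor did *CG4860*, at a mean of 3.51 and 4.74 CPM. *Echs1*, the enoyl-CoA hydratase of short chains, rose from 119 ± 9.95 to 151 ± 9.01 CPM (log2 fold change 0.33, edgeR adjusted p = 0.0105).

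The remaining enzymes of the spiral list were 3 of the enoyl-CoA isomerase family, which handle unsaturated chains. *CG4592* rose from 6.88 ± 1.53 to 11.8 ± 2.38 CPM (log2 fold change 0.77, SE 0.23, edgeR adjusted p = 0.0221), at a low level. *CG4594* and *CG4598* had log2 fold changes of 0.46 and 0.09 and did not pass. The call of *CG4592* was lost in 4 of the 6 fits that left out 1 sample, as was that of *Mtpbeta*, and that of *Arc42* in 2, and these 3 calls were also lost with the Wald test of DESeq2.

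**Figure D3:**
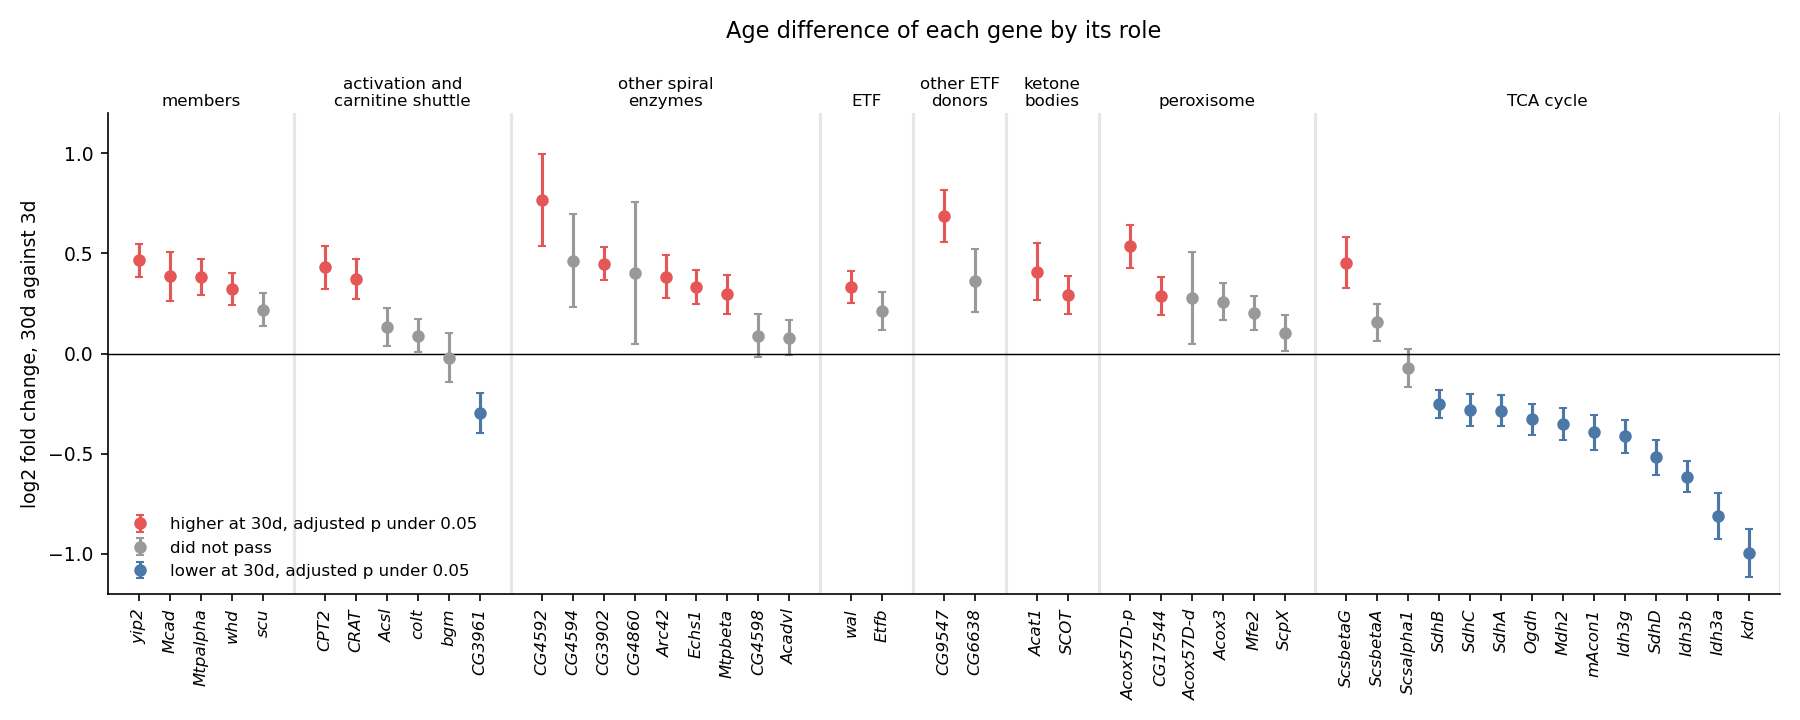
The log2 fold change at 30d against 3d (vertical axis, points, with the SE as bars) of the 5 enzymes (labelled members) and of the tested genes of 7 lists ordered by role, with red for a rise and blue for a fall at an adjusted p under 0.05. The 5 enzymes lie between 0.22 and 0.46, and 11 of the 14 TCA cycle genes are blue.

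Electrons from the acyl-CoA dehydrogenases pass to the electron transfer flavoprotein (ETF). Its alpha subunit, *wal*, rose from 181 ± 11.4 to 228 ± 12.1 CPM (log2 fold change 0.33, SE 0.08, edgeR adjusted p = 0.00740). Its beta subunit, *Etfb*, was at 178 ± 11.4 and 206 ± 26.4 CPM and did not pass (log2 fold change 0.21, edgeR adjusted p = 0.116), though it passed with scaling by library size alone and without 30d replicate 1. Dehydrogenases of amino acid breakdown give electrons to the same flavoprotein. Of these, *CG9547*, the glutaryl-CoA dehydrogenase of lysine breakdown, rose from 16.9 ± 0.748 to 27.2 ± 1.93 CPM (log2 fold change 0.69, SE 0.13, edgeR adjusted p = 0.00168), and *CG6638*, the isovaleryl-CoA dehydrogenase of leucine breakdown, had a log2 fold change of 0.36 and did not pass (edgeR adjusted p = 0.101).

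Acetyl-CoA from the spiral can also be turned into ketone bodies, which other cells oxidize. Of this pathway 2 genes are described here, and *Acat1*, a mitochondrial acetoacetyl-CoA thiolase, and *SCOT*, which activates acetoacetate, rose by log2 fold changes of 0.41 and 0.29 (adjusted p = 0.0455 and 0.0327 with edgeR). Both calls were lost in 4 of the 6 fits that left out 1 sample and with the Wald test of DESeq2, and that of *Acat1* also with limma-voom. In the peroxisome, which shortens very long chains by a parallel set of reactions, 2 of 6 tested genes rose and 0 fell, with a median log2 fold change of 0.27. Scaled by library size alone, 4 rose, with *Acox3* and *Mfe2* added, and with 1 sample left out 1 to 3 rose (1 without 3d replicate 1, 3d replicate 3 or 30d replicate 3). The median was 0.17 without 3d replicate 1. The 2 genes were the acyl-CoA oxidases *Acox57D-p* (36.8 ± 3.96 to 53.5 ± 1.73 CPM) and *CG17544* (68.5 ± 5.34 to 83.8 ± 5.44 CPM), and the call of *CG17544* was lost in 4 of the 6 fits that left out 1 sample and with the Wald test of DESeq2.

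The TCA cycle, which oxidizes the acetyl-CoA that the thiolases release, had the opposite direction. Of its 14 genes, 11 fell and 1 rose, with a median log2 fold change of -0.34, while the 5 fatty acid oxidation enzymes had a median of 0.38. The difference between the lists was not tested. The muscle markers (median -1.03), neuronal markers (median -0.62) and glial markers (median -0.28) fell with the TCA cycle genes. Of the 7 glial markers, 4 fell and 1 rose. Like the sum of the TCA cycle genes, the sums of these marker lists were highest in 3d replicate 1. The part of these markers in the fall of the TCA cycle genes was not tested. *kdn*, the citrate synthase that takes up acetyl-CoA, fell from 829 ± 169 to 416 ± 16.6 CPM (log2 fold change -0.99, SE 0.12, edgeR adjusted p = 9.43e-05). Its level was 1025 CPM in 3d replicate 1, against 735 and 728 CPM in the other 3d samples, and 402 to 434 CPM at 30d. The others that fell were *mAcon1*, *Idh3a*, *Idh3b*, *Idh3g*, *Ogdh*, *Mdh2* and the subunits of succinate dehydrogenase, *SdhA* to *SdhD*, with log2 fold changes from -0.81 to -0.25, and of these *SdhA*, *SdhB* and *SdhC* did not pass with scaling by library size alone or without 30d replicate 2. *SdhB* was also lost without 30d replicate 3, and *SdhC* without 3d replicate 2 and with the Wald test of DESeq2. The gene that rose, *ScsbetaG*, encodes a subunit of succinyl-CoA synthetase (25.1 ± 2.41 to 34.4 ± 4.11 CPM), and its call was lost in 3 of the 6 fits that left out 1 sample and with the Wald test of DESeq2.

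Genes that store and release fatty acids upstream of *whd* were described next. Of 6 such genes, 3 rose and 0 fell. The lipid droplet proteins *Lsd-1* and *Lsd-2*, which are the fly perilipins, rose 1.88-fold (213 ± 24.7 to 400.3 ± 71.2 CPM, log2 fold change 0.91, SE 0.12, edgeR adjusted p = 0.000216) and 1.46-fold (394 ± 24.6 to 574 ± 32.5 CPM, log2 fold change 0.54). The triglyceride lipase *bmm* rose from 76.6 ± 0.414 to 116 ± 18.8 CPM (log2 fold change 0.60, SE 0.11, edgeR adjusted p = 0.00137). The second lipase, *Hsl*, the binding protein *fabp* and the transporter *Fatp1* did not pass, with log2 fold changes of -0.02, -0.11 and 0.11, and 72.1% of the exon bases of *fabp* overlap another gene.

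Among 7 regulators of the pathway, 3 rose and 0 fell, with a median log2 fold change of 0.21. Without 30d replicate 3 this median was 0.13 and 1 rose, without 30d replicate 1 it was 0.32, and without 30d replicate 2 it was 0.18 and 1 rose. *srl*, the fly PGC-1 coactivator, rose from 9.53, 15.6 and 14.2 CPM at 3d to 23.7, 20.2 and 24.6 CPM at 30d (log2 fold change 0.78, SE 0.18, edgeR adjusted p = 0.00496). The forkhead factor *foxo* rose from 108 ± 6.38 to 132 ± 5.68 CPM (log2 fold change 0.29, edgeR adjusted p = 0.0150), though not without 30d replicate 2 or 3 or with the Wald test of DESeq2. *ACC*, the acetyl-CoA carboxylase that makes malonyl-CoA, an inhibitor of the enzyme encoded by *whd*, also rose, from 934 ± 26.7 to 1136 ± 126 CPM (log2 fold change 0.28, edgeR adjusted p = 0.0333), although without any one of 4 samples it did not pass. The kinase subunit *AMPKalpha*, the nuclear receptors *Hnf4* and *ERR* and the receptor of adipokinetic hormone, *AkhR*, did not pass, with log2 fold changes of -0.13, 0.06, 0.05 and 0.21, and 52.2% of the exon bases of *ERR* overlap other genes.

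Markers of the cell types that a head contains also differed between the ages, and their part in the levels of the 5 enzymes was not tested. Of 7 fat body markers, 2 rose (*Apoltp* and *Tsf1*) and 0 fell, with a median log2 fold change of 0.23, and their sum ranged from 9895 to 11182 CPM at 3d and from 12541 to 15460 CPM at 30d. The marker with the most counts, *apolpp*, was at a mean of 5133 and 6232 CPM and did not pass, but passed with library size alone, the Wald test of DESeq2, limma-voom, no filter, the replicate number as a block, and without 30d replicate 1, where the median was 0.35. *Apoltp* was lost without 30d replicate 2. *Lsp2*, another of these markers, was near the lower limit of the counts, at a mean of 9.81 and 5.89 CPM, and passed as lower with no filter and without 30d replicate 3. Of 13 tested muscle markers, 12 fell and 0 rose, with a median of -1.03. Of 7 glial markers, 4 fell and 1 rose (*Indy*), and 2 fell with scaling by library size alone or without 30d replicate 2. Their median was -0.28, with sums of 3246 to 3745 CPM at 3d and 2653 to 2748 CPM at 30d. *repo*, a transcription factor that defines most glia, was at a mean of 67.8 and 76.2 CPM and did not pass (log2 fold change 0.17, edgeR adjusted p = 0.208). Of 7 neuronal markers, 6 fell and 0 rose, with a median of -0.62, and of 7 photoreceptor markers, 2 fell and 0 rose, with a median of -0.22 (-0.09 without 30d replicate 1). The photoreceptor markers summed to 47935 to 56126 CPM at 3d and 52972 to 64745 CPM at 30d, of which *ninaE* had a mean of 25142 and 31265 CPM, and *ninaE* passed as higher with library size alone, the Wald test of DESeq2 and no filter. The defining markers of neurons, *elav* (231 and 204 CPM), and of photoreceptors, *ninaE*, were both present in all samples.

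**Figure D4:**
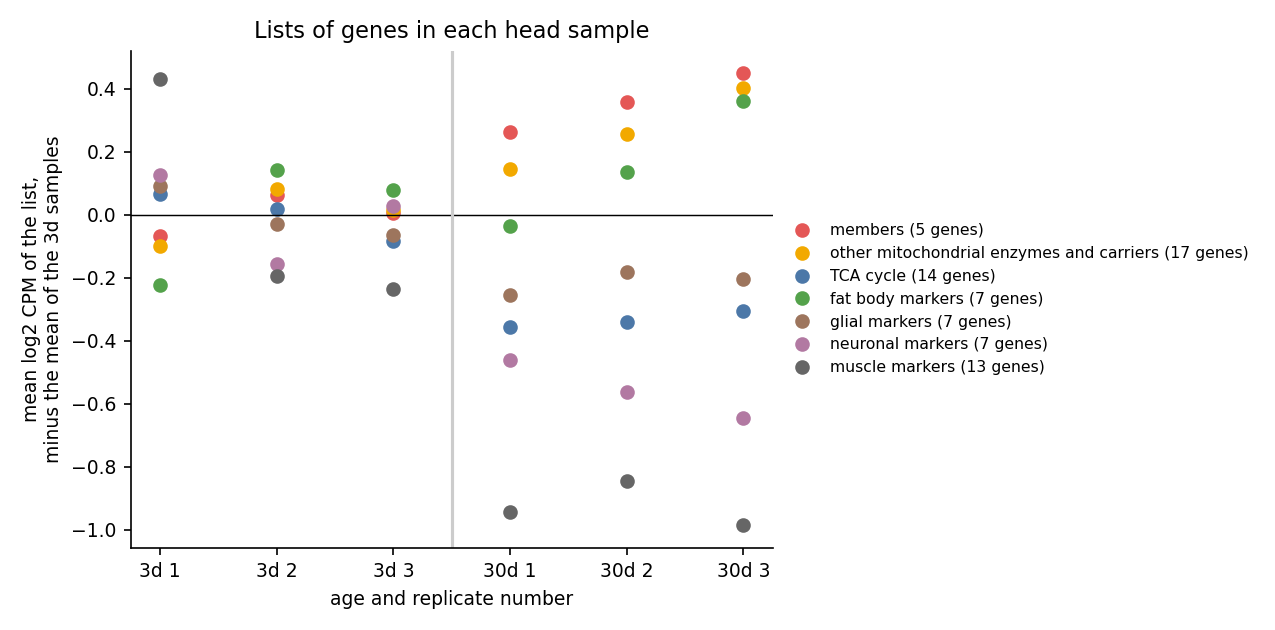
Mean log2 CPM of each list, minus its mean over the 3d samples (vertical axis), in each of the 6 head samples (horizontal axis), for the 5 enzymes (labelled members), the other mitochondrial enzymes and carriers, the TCA cycle and 4 lists of cell type markers. The 5 enzymes lie at 0.26, 0.36 and 0.45 in the 30d samples, and the fat body markers at -0.03, 0.14 and 0.36. The fat body mean weights all its genes equally, including *Lsp2*, which had only 14, 14 and 35 counts at 30d. The muscle markers lie at 0.43 in 3d replicate 1 and lowest of the lists at 30d.

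The genes most like each enzyme were found by the Euclidean distance between log2 profiles over the 6 samples, each centred on its own mean, among 6438 genes with a mean of at least 50 counts. The nearest were *for*, a cGMP-dependent kinase, to *whd* (distance 0.05), *rst*, a cell adhesion protein, to *Mcad* (0.10), *Oatp74D*, an ecdysone importer, to *Mtpalpha* (0.05), *CG6287* to *yip2* (0.07) and *CG12391* to *scu* (0.06). Next came FBgn0014002 for *whd* (0.06) and FBgn0039450 for *Mcad* (0.11), identifiers that were not matched to a symbol in the tables used here, then *pst* for *Mtpalpha* (0.08), *alien* for *yip2* (0.08) and the peroxisomal oxidase *Acox3* for *scu* (0.06). Between the 5 enzymes themselves the distances ran from 0.14 for *Mtpalpha* and *yip2* to 0.32 for *Mcad* and *scu*. With 6 samples, these distances describe the samples at hand only.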

How the data were processed

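PolyA RNA from fly heads was sequenced in 6 samples, 3 of each age, with single-end reads of 100 bases. STAR placed the reads on dm6 and HTSeq counted them per gene; the authors ignored strand and kept a read only where a read lay wholly within the exons of 1 gene. The deposited values are these raw counts, with no normalization, for 17492 FlyBase identifiers, and no sample column was set aside (0 unused). The annotation release behind the counts is not given in the sources used here. Symbols (found for 17356 identifiers), positions, exon lengths and overlaps were taken from Ensembl release 115 of the same assembly.

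The counts were analysed with edgeR 4.0.16 (R 4.3.3). After its default filter (minimum count 10) and TMM scaling, a two-sided quasi-likelihood test compared the ages in 8773 genes, and p-values were adjusted by Benjamini and Hochberg over all of them. The adjusted p threshold was 0.05. Standard errors are the log2 fold change divided by the square root of F. The common biological coefficient of variation was 0.0857, and replicate pairs differed by more than counting noise. Counting error alone understates the error, since reads carried no molecular identifiers. The alternatives were DESeq2 size factors or library size alone, a DESeq2 1.42.0 Wald test, voom in limma 3.58.1, filters of 1 count in total or 10 counts per sample, a block for replicate number, and leaving out each sample. The scripts were tested on simulated data.

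The enzymes and lists were chosen with earlier results of these data known. Named were the 6 enzymes, list genes past the threshold, all genes of the shuttle, spiral, ETF and regulator lists, examples of markers, and the 2 genes nearest in profile to each enzyme. *hll*, a synthetase of the list, and *Etf-QO* were not analysed here, and *CG4586* and *TpnC4* had too few counts. Some genes of the ketone body and peroxisomal pathways are not reported here.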

Additional observations from a re-analysis of the deposited data

How the results depend on the processing

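The 5 enzymes were higher at 30d under every alternative run, and *whd*, *Mtpalpha* and *yip2* passed the threshold in each. The number of the 5 that rose was 3 with the Wald test of DESeq2, 5 with library size alone and 3 to 5 with 1 sample left out, and 0 fell in any. With 1 sample left out the log2 fold changes ranged from 0.28 to 0.38 for *whd*, 0.32 to 0.42 for *Mcad*, 0.30 to 0.43 for *Mtpalpha*, 0.40 to 0.50 for *yip2* and 0.17 to 0.28 for *scu*, and the log2 ratio of *Mtpalpha* to *Mtpbeta* differed by 0.02 to 0.20. Of the other mitochondrial enzymes and carriers, 3 rose with the Wald test of DESeq2, 0 fell with library size alone, and 5 to 9 rose and 0 to 1 fell with 1 sample left out. Of all genes, 741 of the 10241 with an adjusted p rose with the Wald test of DESeq2, and 1715 of 8773 with library size alone. With 1 sample left out, 876 to 1205 rose and 1003 to 1391 fell, of 8879 to 8917 tested. Over all genes the median was 0.10 with library size alone, against 0.02. The cause of these changes was not tested.

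Whether the replicate numbers pair the samples cannot be told from 3 samples of each age. Deviations of same-numbered samples correlated at 0.19, -0.01 and 0.07 over 6443 genes, and 3d replicate 2 correlated best with 30d replicate 3 (0.20). With the replicate block 5 of the 5 enzymes, 1389 genes in all and 8 of the other enzymes and carriers rose, and 1518 genes fell. At this depth *Mcad*, *CG4592*, *CG4594* and *CG4860* rest on few reads, as do others such as *srl*, *CG9547*, *CG6638* and *ERR*. *srl* had 29 to 87 counts in a sample and *CG9547* had 54 to 102.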

Other observations

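On 2L, *yip2* is followed on the same strand by the 3 genes of the enoyl-CoA isomerase family, *CG4598*, *CG4594* and *CG4592*, with 1397, 39 and 173 bases between successive genes in the annotation of dm6. Their log2 fold changes in this order along the chromosome were 0.46, 0.09, 0.46 and 0.77, so that the gene next to *yip2* had the smallest value of the 4. *CG4598* had 36.8, 33.6 and 39.4 CPM at 3d and 36.5, 41.02 and 39.2 CPM at 30d, and its ages overlapped. On 3L, *CG3961* and *CG3902* lie 2636 bases apart on the same strand. The synthetase *CG3961* fell and the dehydrogenase *CG3902* rose (log2 fold changes of -0.29 and 0.45).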
